A study of Mus musculus with 30 samples.

Results

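The comparison of untreated knockout (KO) with untreated wild-type (WT) J774A.1 cells was described here, across all genes. J774A.1 is a mouse macrophage-like cell line. The KO clones carry a homozygous CRISPR/Cas9 deletion of B2_Mm2.Dicer1, a B2 short interspersed element (a mobile repeat) inside the first intron of Dicer1 on chromosome 12, and the WT clones do not. The comparison holds 15 of the 30 RNA-seq libraries of the series, namely 9 untreated WT libraries (3 each of clones WT1, WT2 and WT3) and 6 untreated KO libraries (3 each of clones KO1 and KO2). The other 15 libraries are the same clones after 4 h of interferon-gamma (IFNG) at 100 ng/mL.

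Members of the comparison were genes called different between the KO and WT libraries whose mean level in KO1 and in KO2 lay on the same side of all 3 WT clones. Levels are library-size-scaled counts (CPM), and clones were compared on log2(CPM + 0.5). A gene was called at an adjusted p-value under 0.05 (edgeR quasi-likelihood test, Benjamini-Hochberg adjustment). Of 13886 genes tested, 3689 (26.6%) were called and 3163 (22.8%) met both conditions. Each KO clone descends from 1 electroporated cell and each WT clone from 1 cell that was not electroporated. The deletion, the electroporation and the history of each clone therefore cannot be told apart. In bulk RNA, a smaller share of cells making a transcript and less transcript per cell cannot be told apart either.

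Macrophages sense microbes and cytokines, engulf particles and dead cells, and make chemokines, lipid mediators and interferons. Even without stimulation they keep a low level of interferon-stimulated genes, which depends on small amounts of type I interferon that the cells make themselves. B2 elements carry sequences that transcription factors can bind, and some act as enhancers. Dicer1 encodes the ribonuclease that cuts microRNA precursors.

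Guide RNAs are shown because they define the genotype. The study designed 2 upstream and 2 downstream of the element, and it describes the amplicon that the pair gEC005 and gEC007 leaves. Each is given 5′ to 3′ with its PAM (the bases beside the target that Cas9 needs) in capitals.
gEC005, upstream: ggccagggaacggctttagaGGG
gEC007, downstream: aaatagtcactgggcaacagTGG

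Total counts were 15566122 to 29000473 in WT libraries and 23760033 to 29587932 in KO libraries, and mitochondrial transcripts took 2.82% to 3.76% and 3.15% to 3.88% of them. All 24 macrophage identity genes in the list used were detected, and their summed level was 8293 to 10426 CPM in WT and 10802 to 11621 CPM in KO libraries, without overlap. Some markers of other cell types were at 0 in all 15 libraries. Among them were Cd3e and Cd3g of T cells, Ms4a1 of B cells and S100a9 of neutrophils. Siglech of plasmacytoid dendritic cells, Col3a1 of fibroblasts and Epcam of epithelial cells were also at 0. Other markers of the same lists were detected. Cd5 of T cells, Zbtb46 of dendritic cells, S100a8 of neutrophils and Pdgfra of fibroblasts each had a mean of at least 1 CPM. Each was the highest of the 5 markers of its cell type. Over their 5 markers, the sums for T cells were 4.51 to 46.9 CPM in WT and 7.21 to 12.6 CPM in KO libraries. The sums for dendritic cells were 1.91 to 5.73 and 4.48 to 5.40 CPM. Those for neutrophils, fibroblasts, B cells, mast cells and epithelial cells stayed at or under 3.44 CPM in every library.

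Dicer1, the gene that holds the deleted element, was lower in KO cells, and by more in KO1 than in KO2. Its lowest, median and highest level were 98.9, 126.6 and 132.2 CPM in WT libraries and 71.5, 88.7 and 111.1 CPM in KO libraries. The ranges overlapped, and the clone means were 72.5 CPM in KO1 and 107 CPM in KO2 against 108 to 130 CPM in the WT clones. The log2 fold change (log2FC, KO minus WT) was -0.43 (SE 0.107, adjusted p = 0.00689, edgeR). Without KO1 the log2FC was -0.18 (adjusted p = 0.179, edgeR). An exact two-sided permutation test over the 10 splits of the 5 clone means gave p = 0.2, and the smallest p this design allows is 0.1. Chromosome 12 genes as a whole were also lower in KO1, as given with the chromosomes further on.

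The members numbered 1450 genes that were higher in KO cells (10.4% of the genes tested) and 1713 that were lower (12.3%). Most differences were small. The median size of the log2FC was 0.28 for higher and 0.35 for lower genes, and 79.9% and 68.9% of them were under 0.5. At least 2-fold differences were found for 64 higher and 141 lower genes. For 545 higher (37.6%) and 722 lower members (42.1%), no KO library overlapped a WT library. Over all tested genes this held for 550 higher (3.96%) and 722 lower genes (5.2%), 9.16% in both directions together. Nearly all genes without overlap were thus members, so the larger share among members follows from the rule that defines them. At the threshold, Zfp266 was the last gene called, with a mean ± SD of 41.8 ± 2.44 CPM over 9 WT and 37.0 ± 4.14 CPM over 6 KO libraries. Ubxn4 was the first not called, with 111.4 ± 8.06 and 121.9 ± 4.63 CPM.

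Libraries of 1 clone resemble each other, so p-values over libraries do not measure the spread between clones. With clone as a random block, limma voom called 950 genes (6.84%), of which 419 were higher (3.02%) and 531 lower (3.82%), and the estimated correlation between libraries of a clone was 0.65. That fit called 391 of the 1450 higher and 525 of the 1713 lower members. With counts summed per clone (3 against 2), edgeR called 1 gene, Pla2g7, and 1842 genes had an unadjusted p-value under 0.05. Of 112 named genes besides Dicer1, 35 lost their call with the clone block.

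The largest increase was that of Pla2g7, which encodes a secreted phospholipase that inactivates platelet-activating factor (chromosome 17, 43568098 to 43612201, plus strand, mm10). Its level was 14.7, 19.3 and 26.5 CPM (lowest, median, highest) in KO libraries and 0, 0 and 0.0641 CPM in WT libraries. Transcripts were found in all KO libraries, with 367 to 771 counts each, and the 9 WT libraries together had 2 counts. The ratio of pooled CPM was 2059 (95% exact interval 569 to 17010, counting error only). The fit gave a log2FC of 10.39 (SE 0.296, adjusted p = 1.53e-12, edgeR). In fits without any 1 of the clones it stayed called.

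Art3 and Rras2 showed the opposite pattern. Art3, which encodes a membrane-anchored member of the ADP-ribosyltransferase family (chromosome 5, 92331827 to 92414628, plus strand), was at 3.90, 4.88 and 6.68 CPM in WT and at 0, 0.0543 and 0.112 CPM in KO libraries. The KO libraries held 8 counts and the WT libraries 1059, a ratio of 101 (95% exact interval 51.2 to 235). The log2FC of Art3 was -6.53 (SE 0.309, adjusted p = 1.51e-09, edgeR). Rras2, a small GTPase of the Ras family (chromosome 7, 114046782 to 114117781, minus strand), was at 3.05, 4.14 and 5.74 CPM in WT and at 0.112, 0.280 and 0.461 CPM in KO libraries. Its groups did not overlap (log2FC -3.98, SE 0.247, adjusted p = 3.00e-08, edgeR). Both genes were called with the clone block.

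**Figure D1:**
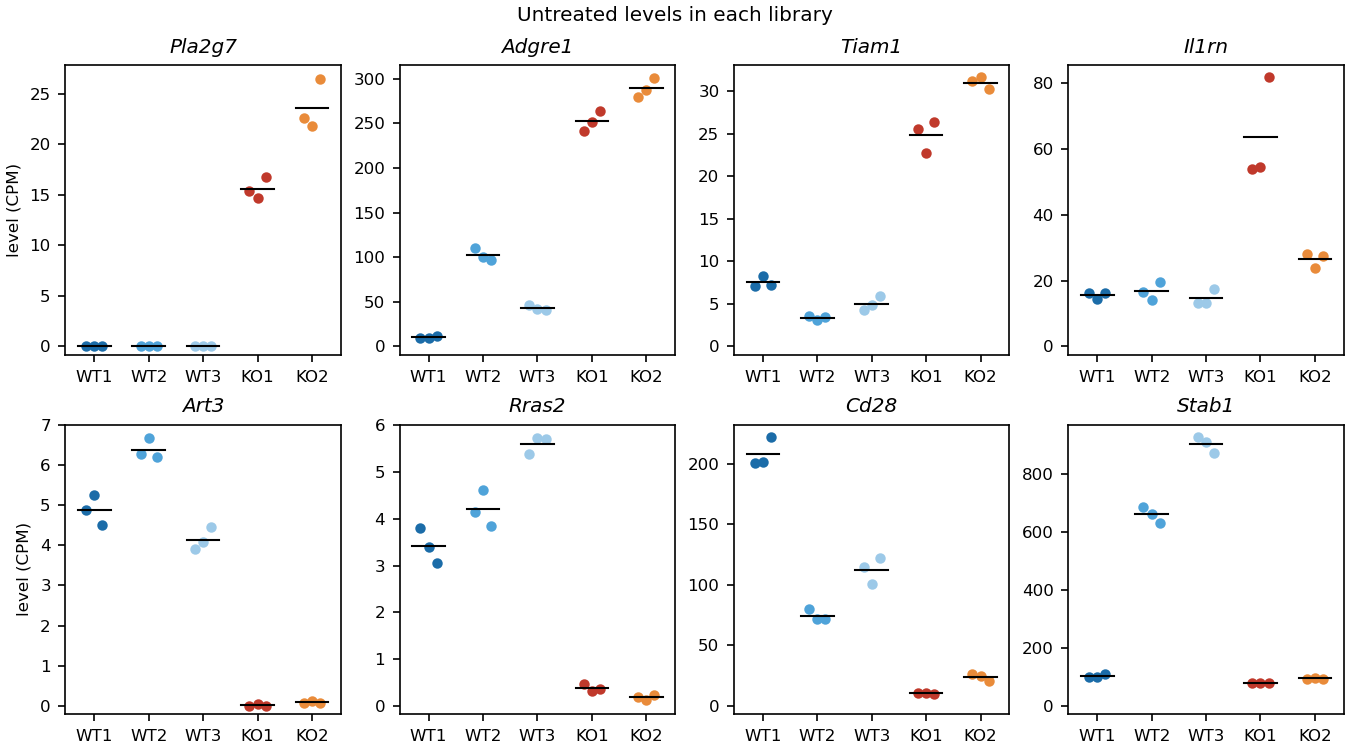
Level in CPM (y axis, linear, from 0) of 8 genes in each untreated library of the 3 WT and 2 KO clones (x axis); points are libraries and black lines are clone means (n = 3 libraries). Pla2g7 lies at 14.7 to 26.5 CPM in KO and at or under 0.0641 CPM in WT libraries, whereas WT1 lies close to the KO clones for Stab1 and WT2 has the highest WT level of Adgre1.

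Among the other genes with large increases were regulators of the cytoskeleton, adhesion and inflammation. Tiam1, an exchange factor that activates the GTPase Rac, was at 3.17, 4.86 and 8.34 CPM in WT and 22.8, 28.3 and 31.6 CPM in KO libraries (log2FC 2.37, SE 0.188, adjusted p = 6.20e-07, edgeR). No libraries overlapped, and Tiam1 lies on chromosome 16, outside the 3 chromosomes set aside below. Adgre1, which encodes the macrophage surface protein F4/80 (chromosome 17), was at 9.51, 41.8 and 110.4 CPM in WT and 241.2, 271.6 and 300.5 CPM in KO libraries. The WT clones themselves ranged from 10.5 CPM in WT1 to 103 CPM in WT2, and the KO clones lay above all of them (log2FC 2.39, SE 0.480, adjusted p = 0.00164, edgeR).

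Il1rn, the secreted antagonist of the interleukin-1 receptor (chromosome 2), was at 13.1, 16.1 and 19.6 CPM in WT and 23.9, 41.1 and 82.0 CPM in KO libraries. Both KO clones were above the WT clones, KO1 (63.5 CPM) by more than KO2 (26.6 CPM), and the log2FC was 1.52 (SE 0.224, adjusted p = 0.000122, edgeR). Ppp1r12b, a regulatory subunit of myosin phosphatase, had 11.1 to 32.4 CPM in the WT libraries and 44.5 to 98.8 CPM in the KO libraries (log2FC 1.88, adjusted p = 0.000117, edgeR). Igf2r, the receptor that carries lysosomal enzymes and clears insulin-like growth factor 2 (chromosome 17), had a log2FC of 2.14. F11r, a junctional adhesion molecule, had a log2FC of 1.81. The remaining genes named by size were St6gal1 (a sialyltransferase), Adra1a (an adrenergic receptor), Plpp1 (a lipid phosphatase), Dram1 (a p53-regulated lysosomal membrane protein) and the protocadherin Pcdhb22, with log2FC of 1.41 to 1.74. St6gal1 and Pcdhb22 overlapped between the groups.

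Lower genes with large differences included receptors of phagocytes and lymphocytes. Cd28, known as a costimulatory receptor of T cells (in the first 75 Mb of chromosome 1), was at 71.5, 114.5 and 222.1 CPM in WT and 9.38, 15.5 and 26.3 CPM in KO libraries. The groups did not overlap (log2FC -2.95, SE 0.353, adjusted p = 1.70e-05, edgeR). Of the 5 T cell markers, Cd3e and Cd3g were at 0 throughout. However, 2 others had a mean of at least 1 CPM, with Cd5 the highest. Stab1, a scavenger receptor of macrophages, was at 98.4, 663.4 and 929.7 CPM in WT and 77.0, 85.8 and 96.2 CPM in KO libraries. Its log2FC was -2.69 (SE 0.531, adjusted p = 0.00141, edgeR), but WT1 (102 CPM) lay close to the KO clones (77.9 and 94.3 CPM), far from WT2 and WT3 (662 and 905 CPM).

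Gas6, which bridges dying cells to the receptor Mertk, had a log2FC of -3.11 (SE 0.785, adjusted p = 0.00783, edgeR). Its level was 10.5, 34.1 and 75.7 CPM in WT and 0.206, 3.15 and 10.96 CPM in KO libraries, which overlapped, since KO1 (9.22 CPM) was near WT1 (11.3 CPM). Mertk itself, a receptor for uptake of dying cells, was at 29.2, 56.1 and 61.0 CPM in WT and 17.5, 24.6 and 26.6 CPM in KO libraries without overlap (log2FC -1.10, SE 0.178, adjusted p = 0.000288, edgeR).

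The transcription factor Fosb, a component of AP-1, was at 7.11, 13.2 and 25.2 CPM in WT and 0.977, 1.6 and 2.47 CPM in KO libraries (log2FC -3.10, SE 0.311, adjusted p = 3.98e-06, edgeR). Zfp618, a zinc finger protein, had a log2FC of -3.35, and Ltbp4, a matrix protein that binds latent TGF-beta, one of -3.07. Groups did not overlap for either. Itga8, an integrin subunit, and Il7r, the interleukin-7 receptor, each had a log2FC of -2.39. Vat1, a membrane protein of vesicles, had a log2FC of -2.72 and a WT range from 18.1 CPM in WT3 to 120 CPM in WT2. Zfp704 (log2FC -3.28) overlapped between the groups. Zfp704 was the only one of the 26 genes named by size or given with the comparison whose call was lost with the clone block (adjusted p = 0.125, limma voom).

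Functions were then described by 20 lists of 496 genes, of which 434 were tested. Of these, 52 were higher and 71 lower with both KO clones outside the WT range, together 28.3% against 22.8% of all tested genes. The median log2FC was -0.01 over the listed genes and -0.0004 over all tested genes. The list that stood furthest from this background was that of interferon-stimulated genes.

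Interferon-stimulated genes were lower in untreated KO cells. Of 35 tested, 20 were lower and 0 higher with both KO clones outside the WT range (57.1% in total, against 12.3% lower among all tested genes), and a further gene, Rtp4, was called lower with WT1 below both KO clones. The median log2FC of the list was -0.59, and 32 of 35 genes had a log2FC below 0. Taken per library, the median difference of the 35 genes from the mean of the WT clones was -0.54 to -0.39 (log2) in KO libraries and -0.19 to 0.29 in WT libraries, without overlap. KO1 was below every WT clone for 24 of the 35 genes and KO2 for 23. For 12 of the 20 lower genes no KO library overlapped a WT library.

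The lower genes included transcription factors, sensors and effectors, and 14 of the 35 tested genes of the list were not called (edgeR). Among the transcription factors, Stat2 (log2FC -0.44), Irf9 (-0.50) and Irf7 (-0.90), which act in type I interferon signalling and its amplification, were lower. The calls of Stat2 and Irf9 were lost with the clone block (adjusted p = 0.0555 and 0.0763, limma voom). Irf1, another interferon-induced factor, was not called (log2FC -0.14, adjusted p = 0.295, edgeR).

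Some sensors of viral RNA and DNA were lower as well. Other sensors of the list, Eif2ak2 and Zbp1, were not called, and Tlr8 and Tlr13 of the pattern recognition list were higher (given below). Dhx58, which encodes the sensor LGP2, was at 12.8, 15.5 and 19.1 CPM in WT and 6.79, 8.32 and 10.1 CPM in KO libraries (log2FC -0.91, adjusted p = 2.42e-05, edgeR). Ddx58 (RIG-I) had a log2FC of -0.50 and Ifih1 (MDA5) one of -0.40, though Ifih1 was not called with the clone block (adjusted p = 0.0858, limma voom). Ifi204, a DNA-binding protein of the p200 family, was at 27.9, 31.99 and 36.5 CPM in WT and 15.8, 16.3 and 17.4 CPM in KO libraries (log2FC -0.94, adjusted p = 2.14e-08, edgeR). Its groups were well apart, with all 3 WT clones between 29.8 and 33.5 CPM.

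Effectors followed the same direction. Ifit2, an RNA-binding antiviral protein, was at 17.7, 20.96 and 26.5 CPM in WT and 10.8, 11.9 and 13.6 CPM in KO libraries (log2FC -0.87, adjusted p = 3.98e-06, edgeR). Oas3, which makes the messenger that activates RNase L, was at 40.2, 49.2 and 55.1 CPM in WT and 29.7, 31.2 and 32.7 CPM in KO libraries (log2FC -0.63, adjusted p = 6.10e-06, edgeR). Slfn8 (log2FC -1.04), the deISGylating protease Usp18 (-1.04, chromosome 6) and Cmpk2 (-1.01, chromosome 12) had the largest differences among the called genes with both clones outside. Rsad2 (-0.89) and Isg15 (-0.69) were lower at low levels (0.45 to 2.44 CPM) and lost their calls with the clone block (adjusted p = 0.212 and 0.41, limma voom). Oasl2, Bst2, Slfn2, Eif2ak2 and Gbp7 were not called, with log2FC between -0.06 and 0.13.

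**Figure D2:**
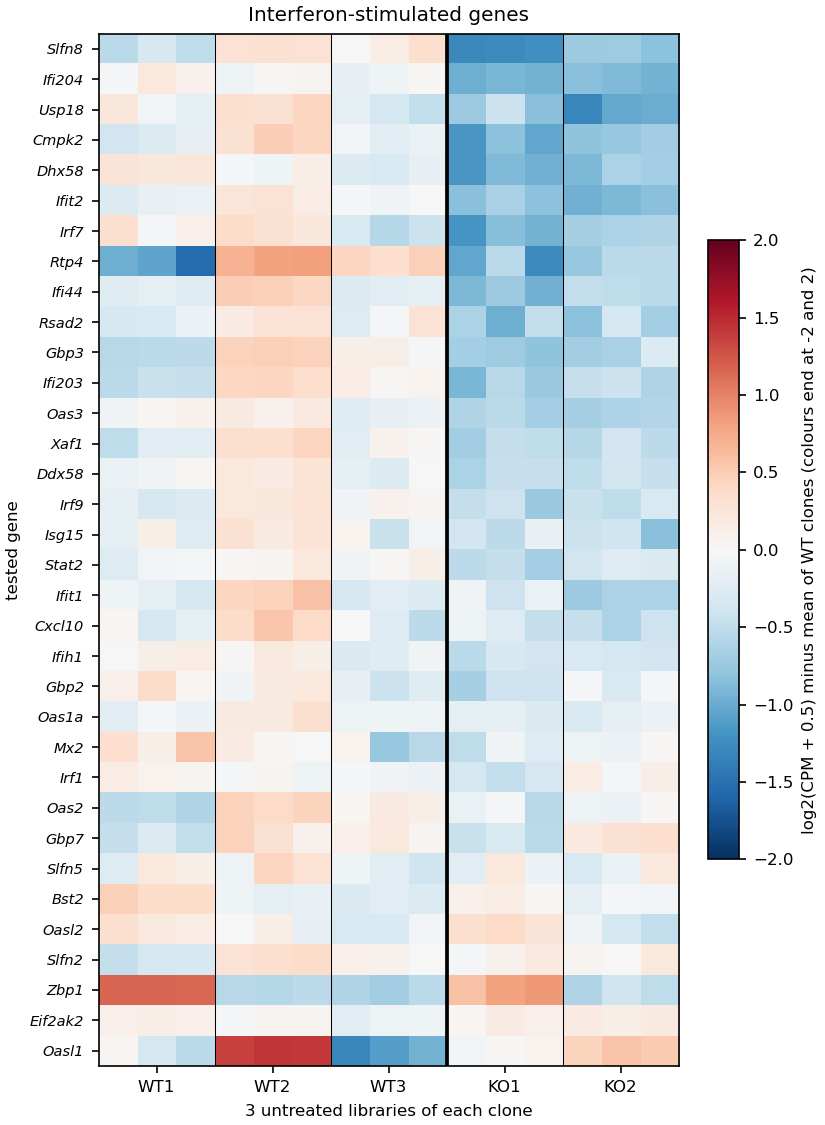
Difference of log2(CPM + 0.5) from the mean of the WT clones (colour, blue lower and red higher, colours ending at -2 and 2) for 34 of the 35 tested interferon-stimulated genes (rows) in 15 untreated libraries (columns, 3 per clone, WT left and KO right of the thick line). Genes at the top are lower in both KO clones; Rtp4, Zbp1 and Oasl1 differ most among the WT clones.

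Without chromosomes 6, 12 and 17, 17 of 31 tested genes were lower and 0 higher, against 10.7% lower among all tested genes outside them. With the clone block, 12 of all 35 tested genes were lower and 0 higher, against 3.82% called lower among all tested genes. Leaving out 1 clone at a time left 33 to 35 genes of the list tested. Of these, 15 to 23 were lower with the remaining KO clones outside, the fewest without KO1, and 0 to 2 higher. The lower count over all tested genes moved as well, from 968 of 14441 without KO1 to 3143 of 13552 without WT1. WT2, which had the highest level for many of these genes, could be left out with 17 lower and 1 higher.

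The interferon-stimulated response element has repeated GAAA letters, so promoters (250 bases before to 50 after the start, RefSeq, GRCm38.p6) were searched for GAAANNGAAA on both strands. A promoter was matched for 8886 of 11366 tested protein-coding genes, and 3.17% of them held the letters. Of the 16 lower list genes with a promoter, 9 did (56.2%), and of the 11 uncalled list genes 7 did (63.6%). The share was no smaller in the list genes that were not called. Windows of 60 bases from 6 lower genes with the letters upstream of the start are shown 5′ to 3′ on the gene's strand. Oas1a, also lower, has the letters upstream (first base at -20) and is not shown. Capitals mark the match, and several matches may run together.
Slfn8, chr11:83020824-83020883, minus strand: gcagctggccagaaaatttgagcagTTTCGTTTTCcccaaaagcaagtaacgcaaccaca
Rsad2, chr12:26456538-26456597, minus strand: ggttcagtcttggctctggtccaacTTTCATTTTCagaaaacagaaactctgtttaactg
Gbp3, chr3:142559974-142560033, plus strand: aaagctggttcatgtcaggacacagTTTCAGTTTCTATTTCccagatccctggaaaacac
Isg15, chr4:156200862-156200921, minus strand: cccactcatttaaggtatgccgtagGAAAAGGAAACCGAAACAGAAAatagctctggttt
Oas3, chr5:120777700-120777759, minus strand: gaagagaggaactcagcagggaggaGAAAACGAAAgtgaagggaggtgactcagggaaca
Stat2, chr10:128270251-128270310, plus strand: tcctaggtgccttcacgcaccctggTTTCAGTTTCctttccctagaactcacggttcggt

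p53 target genes were higher in KO cells or not called. Of 16 tested, 8 were called higher and 0 lower, and 4 were higher with both KO clones outside (4 of 16, against 10.4% of all tested genes). The median log2FC was 0.27. Per library, the median difference of these genes from the WT mean was 0.17 to 0.53 (log2) in KO and -0.09 to 0.06 in WT libraries. Cdkn1a, the cell cycle inhibitor p21 (chromosome 17), was at 97.3, 105.4 and 165.7 CPM in WT and 180.8, 220.6 and 275.5 CPM in KO libraries (log2FC 0.88, SE 0.137, adjusted p = 0.000191, edgeR). Zmat3 (log2FC 0.66), Ccng1 (0.45) and Bax (0.41), which act in RNA binding, cell cycle control and apoptosis, were the other 3, none of them on chromosomes 6, 12 or 17. With the clone block these 4 genes were called. Mdm2, Bbc3, Pmaip1 and Fas were called higher (log2FC 0.22 to 0.52), but not with both KO clones above all WT clones, and none of these 4 was called with the clone block. Leaving out WT1 gave 10 higher and 2 lower with both KO clones outside, but the counts over all genes rose as well, to 3176 higher and 3143 lower of 13552. Leaving out any other clone gave 3 (without KO1) to 7 (without KO2) higher of 16 and 0 lower, with the remaining KO clones outside.

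The other lists with members in mostly 1 direction were short. Their shares are to be read beside the 22.8% of all tested genes (10.4% higher, 12.3% lower). Of 14 matrix and protease genes, 5 were higher and 0 lower with both clones outside (35.7%), namely Col4a2, Timp2, Plaur, Adam9 and Adam10, with log2FC from 0.17 to 1.61. The clone block kept the calls of Timp2 and Adam9 and lost those of Col4a2, Plaur and Adam10 (adjusted p = 0.272, 0.0776 and 0.255, limma voom). Of 22 lysosome and phagosome genes 6 were higher and 1 lower (31.8%), 15 were not called, and the median log2FC was 0.04. Ctsz (log2FC 0.41) and Ctsa (0.37), lysosomal proteases beyond 150 Mb of chromosome 2, rose without overlap between the groups, and genes of that stretch were higher in general (given with the chromosomes below). Without all stretches named there and chromosomes 6, 12 and 17, 4 of 17 genes of the list were higher and 1 lower. Ctsh, another cathepsin, was the lower one, at 5.22, 11.53 and 21.2 CPM in WT and 0.703, 2.56 and 3.91 CPM in KO libraries (log2FC -2.36, SE 0.411, adjusted p = 0.000534, edgeR). Of 13 chemokines 4 were higher (Cxcl14, Ccl2, Ccl9 and Cxcl16) and 1 was lower (Ccl12), together 38.5%. Ccl9 was at 364.9, 454.1 and 598.7 CPM in WT and 663.7, 718.7 and 976.1 CPM in KO libraries (log2FC 0.65, adjusted p = 0.000584, edgeR). Ccl2, which attracts monocytes, had a log2FC of 0.66 with no overlap, but its call was lost with the clone block (adjusted p = 0.057, limma voom), as was that of Ccl12 (0.319).

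Other lists were split between directions, and their shares are to be read beside the 22.8% of all tested genes (10.4% higher, 12.3% lower). With the clone block, 393 of 13886 tested genes were higher and 526 lower with both KO clones outside. Among 23 macrophage identity genes 5 were higher and 3 lower (34.8% in total), and 2 and 1 with the clone block. Spi1, the lineage factor PU.1, was at 196.9, 233.0 and 246.3 CPM in WT and 264.2, 289.1 and 318.5 CPM in KO libraries (log2FC 0.35, SE 0.0592, adjusted p = 0.000395, edgeR). Cebpa, another lineage factor, was at 4.03, 13.7 and 20.3 CPM in WT and 2.39, 3.70 and 4.32 CPM in KO libraries, which overlapped (log2FC -1.79, adjusted p = 0.00237, edgeR; with the clone block, adjusted p = 0.0966, limma voom). Lipid mediator genes had 5 higher and 4 lower of 19 (47.4%). Beside Pla2g7, the prostaglandin E2 receptor Ptger4 was higher (log2FC 1.11) and thromboxane synthase, Tbxas1 (chromosome 6), lower (-0.74). The cytosolic phospholipase Pla2g4a differed by -0.16. Neither lower gene kept its call with the clone block (adjusted p = 0.112 for Tbxas1 and 0.275 for Pla2g4a, limma voom), under which 3 genes of the list were higher and 0 lower.

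Pattern recognition receptors had 3 higher and 8 lower of 27 (40.7%), and 3 and 3 with the clone block. Tlr8 and Tlr13 of the X chromosome and the adaptor Myd88 were higher (log2FC 0.60, 0.42 and 0.31). Tlr8 lies beyond 150 Mb of that chromosome, where genes were higher in general (given with the chromosomes below). The lectin genes Clec4n and Clec4d of chromosome 6 were lower (-1.31 and -0.62), as was the DNA sensor Aim2 (-0.48). Without chromosomes 6, 12 and 17 the list held 3 higher and 5 lower of 18, and without all stretches named below as well, 2 higher and 4 lower of 15. Fc receptor and complement genes had 0 higher and 3 lower of 14 (21.4%), a share near the 22.8% of all tested genes. The 3 were Fcgr2b, the inhibitory receptor for IgG (log2FC -0.55), Fcgr4 (-0.44) and the complement protease C1ra of chromosome 6 (-0.73).

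Redox and iron genes had 2 higher and 5 lower of 24 (29.2%), and 2 and 2 with the clone block. Sod2, the mitochondrial superoxide dismutase (chromosome 17), had a log2FC of 0.64 and Fth1, the ferritin heavy chain, one of -0.43, both without overlap. Cell cycle genes had 5 higher and 7 lower of 28 (42.9%), and 0 and 4 with the clone block. The inhibitor Cdkn1b (-0.63) and the replication factor Mcm2 (-0.34) lie on chromosome 6. Adhesion and integrin genes had 2 higher and 4 lower of 24 (1 and 2 with the clone block), and cytokine and chemoattractant receptors 1 higher and 4 lower of 27 (1 and 2). The type I interferon receptor subunit Ifnar1 was the higher receptor (log2FC 0.31). Cytokines and growth factors had 1 higher and 3 lower of 18 (22.2%), and 1 and 0 with the clone block. The adhesion and cytokine shares were near the 22.8% of all tested genes, and the receptor share was under it.

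In 4 lists the share of members was under the 22.8% of all tested genes by more than a factor of 2. Glycolysis genes had 0 called of 20 (edgeR). Lipid handling had 1 of 21, the cholesterol exporter Abcg1 of chromosome 17 (log2FC 0.62). Antigen presentation had 2 of 20, Tapbp higher and Cd86 lower, and NF-kB and immediate early genes had 1 higher (Nfkbid) and 2 lower (Rel and Fosb) of 27, of which Fosb alone was called with the clone block (adjusted p = 0.399 for Nfkbid and 0.21 for Rel, limma voom). These low counts rested on WT1. Without WT1, glycolysis genes had 15 higher and 2 lower of 20, and antigen presentation 12 and 2 of 20. NF-kB and immediate early genes had 16 and 2 of 27, and lipid handling 7 and 6 of 21. The counts over all genes rose as well, to 3176 higher and 3143 lower of 13552 tested without WT1. Of the 20 antigen presentation genes, 8 lie outside chromosomes 6, 12 and 17. Chromosome 17 genes were also higher in WT1 (given with the chromosomes below). The median glycolysis gene was at 0.41 to 0.49 (log2, against the WT mean) in the WT1 libraries, at -0.31 to -0.16 in those of WT2 and WT3, and at 0.04 to 0.23 in KO libraries. The KO libraries thus lay between WT1 and the other WT clones.

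Small RNA machinery genes had 3 higher and 1 lower of 15 (26.7%, against 22.8% of all tested genes). Xpo5, which exports microRNA precursors from the nucleus (chromosome 17), had a log2FC of 0.34, Ago3 one of 0.30 and Dgcr8 one of 0.20, and Dicer1 was the lower gene. Ago3 and Dgcr8 lost their calls with the clone block (adjusted p = 0.133 and 0.222, limma voom).

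**Figure D3:**
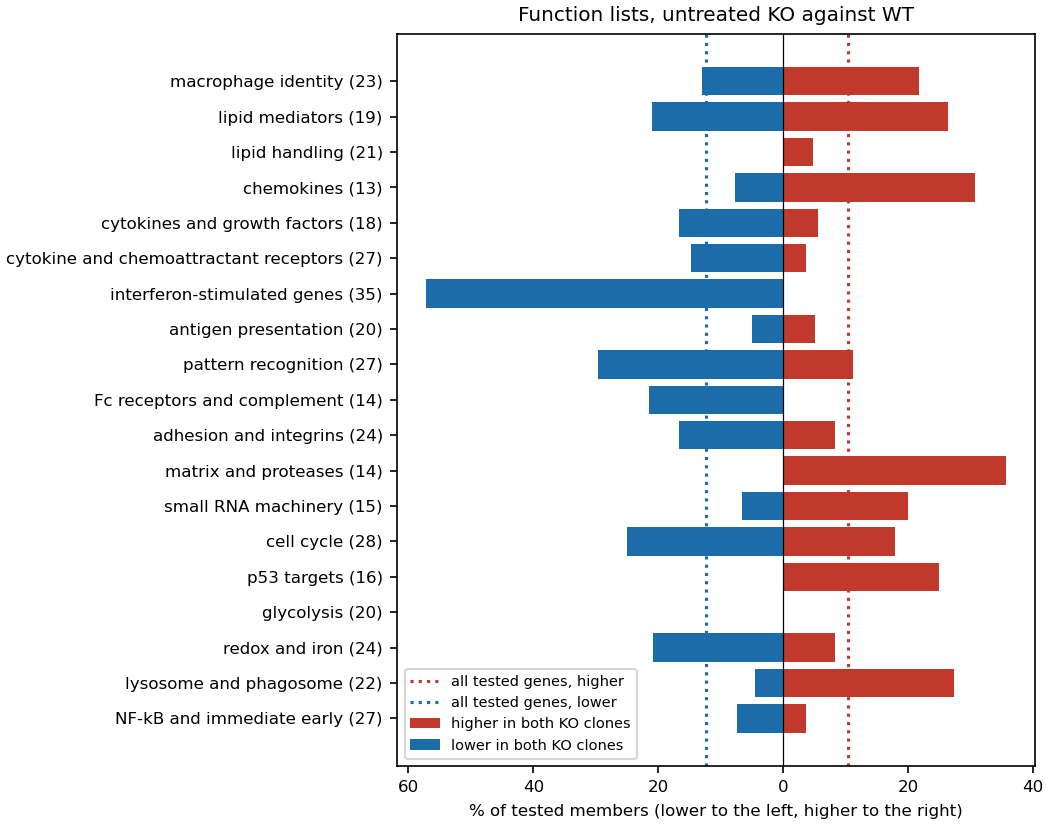
Percent of tested members (x axis, lower to the left and higher to the right of 0) called with both KO clones outside the WT range in each of 19 of the 20 function lists (y axis, number tested in brackets). Dotted lines give the percent over all tested genes (12.3% lower, 10.4% higher); interferon-stimulated genes reach 57.1% lower and 0 higher, and glycolysis genes have none with all 3 WT clones included.

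Members were not spread evenly over the chromosomes. On chromosome 6, 334 of 690 tested genes (48.4%) were lower and 21 higher with both KO clones outside, and the median log2FC was -0.27. On chromosome 17, 229 of 696 (32.9%) were higher and 13 lower (median 0.19). On chromosome 12, 75 of 490 (15.3%) were lower and 13 (2.65%) higher (median -0.16). Over all tested genes 12.3% were lower and 10.4% higher. The lower share of chromosome 12 was thus near that of all genes, and it was under those of chromosomes 1 (23.2%) and 18 (16.6%). The clones behind these medians differed. Against the mean of the WT clones, the median gene of chromosome 6 was at -0.22 in KO1 and -0.26 in KO2 (log2), and within 0.01 of it in each WT clone. For chromosome 12 it was at -0.34 in KO1 and 0.01 in KO2. For chromosome 17, WT1 was at 0.16, near KO1 (0.19) and KO2 (0.20), and WT2 and WT3 were at -0.09 and -0.07.

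Without chromosomes 6, 12 and 17, 1187 genes were higher (9.88% of 12010 tested) and 1291 lower (10.7%). Of these, 53 and 117 differed at least 2-fold, and the clone block called 289 and 309. Other chromosomes also held stretches in which genes moved together. In the first 75 Mb of chromosome 1, 141 of 287 tested genes were lower and 6 higher (median log2FC -0.28, at -0.25 in both KO clones against the WT mean). Beyond 150 Mb of chromosome 2, 93 of 302 were higher and 7 lower (median 0.18, WT1 at 0.15). Beyond 150 Mb of the X chromosome, 33 of 80 were higher and 1 lower (median 0.55), and WT1 (0.53) was again close to KO1 (0.63) and KO2 (0.58), with WT2 and WT3 at -0.26 and -0.25. When these stretches were left out too, a choice made after the values were seen, 1055 higher (9.3% of 11341) and 1142 lower genes (10.1%) were left, and 16 of 29 interferon-stimulated genes were lower with 0 higher. The copy number of these chromosomes was not measured here.

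**Figure D4:**
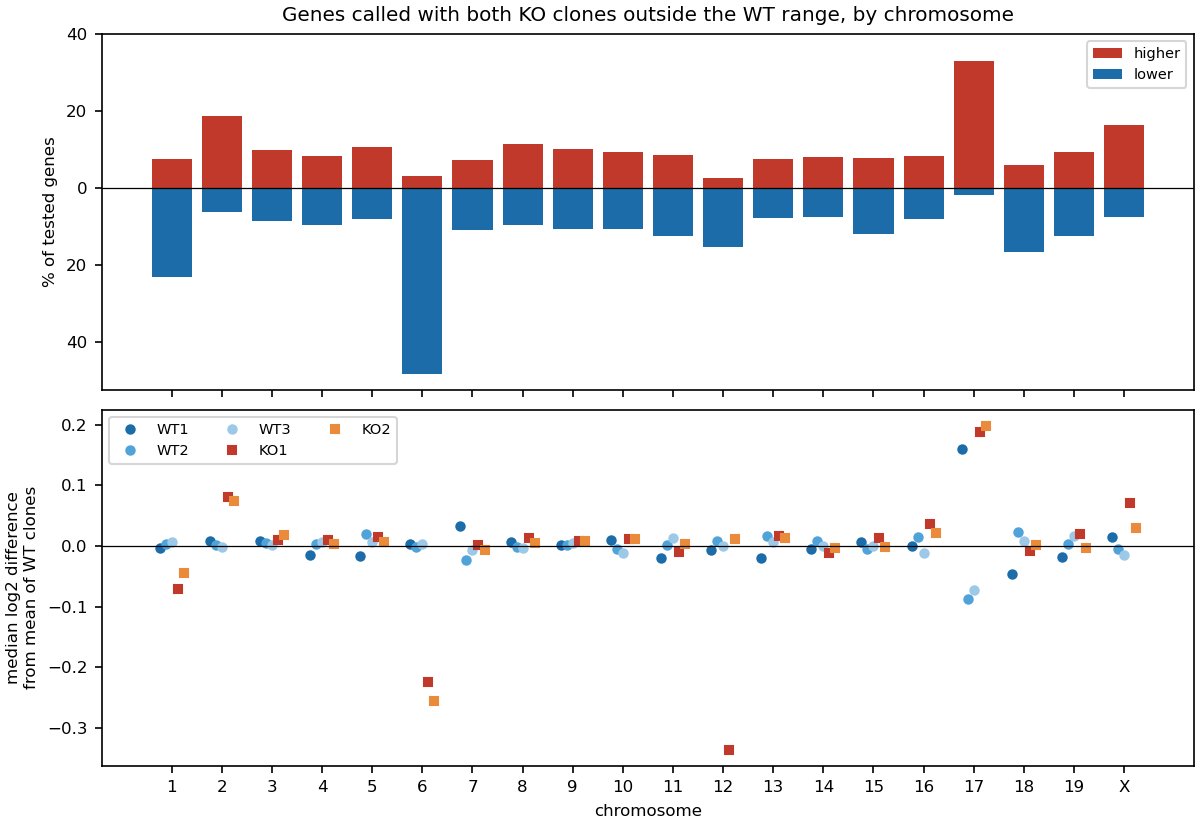
Top, percent of tested genes per chromosome (x axis) called higher (red, above 0) or lower (blue, below 0) with both KO clones outside the WT range. Bottom, median over the genes of a chromosome of the log2 difference of each clone from the mean of the WT clones; chromosome 6 is lower in both KO clones, chromosome 12 in KO1, and chromosome 17 is higher in WT1, KO1 and KO2.

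The same genes were then read in the IFNG-treated libraries of the same clones, which were not used to choose them, but come from the same 5 clones. In that comparison 23.9% of 13637 genes were called (10.9% higher and 13% lower in KO). Of 1439 higher members tested there, 1427 had the same direction and 945 (65.7%) were called in it. Of 1683 lower members, 1662 had the same direction and 1224 (72.7%) were called. Without chromosomes 6, 12 and 17 the called shares were 63.6% and 68.5%. Art3 (log2FC -5.69), Rras2 (-3.88), Cd28 (-3.37), Tiam1 (1.76) and Adgre1 (2.43) were all called again.

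Interferon-stimulated genes differed less after IFNG. Of 35 tested, 12 were called lower and 1, Gbp2, higher, and the median log2FC was -0.22 instead of -0.59. The change of the KO minus WT difference with treatment was positive for 29 of 35 and passed the test (edgeR interaction, clone as a term) for 9, all positive. Ifit2, for example, had a log2FC of -0.13 after IFNG (adjusted p = 0.403, edgeR), and Cmpk2 one of -0.20, whereas Ifi204 (-0.58) and Dhx58 (-0.63) were still called lower. p53 target genes had 8 called higher and 0 lower of 15 after IFNG (median 0.44).

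**Figure D5:**
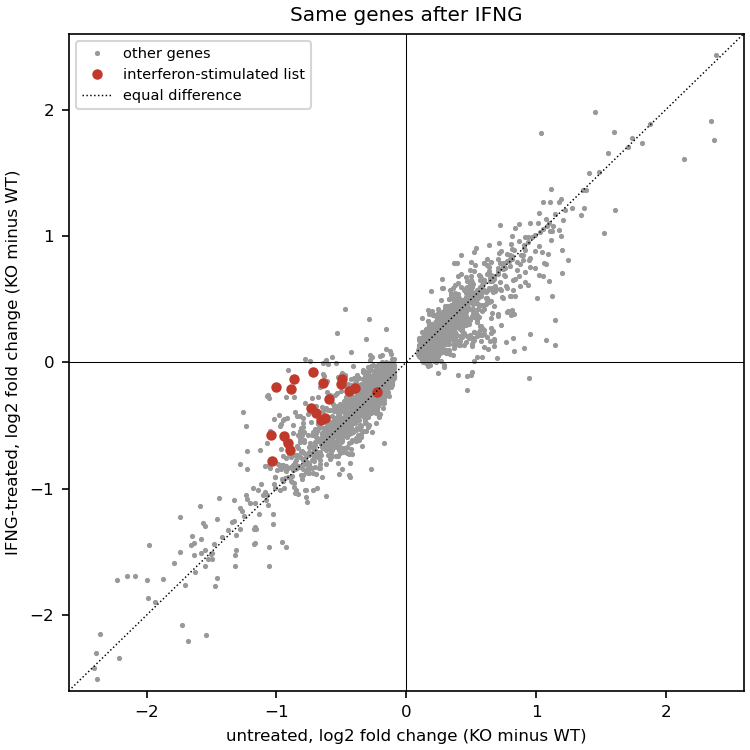
Log2 fold change (KO minus WT) of each member tested in both treatments, untreated (x axis) against IFNG-treated (y axis); red points are interferon-stimulated list genes and the dotted line marks equal values. Of 3122 genes, 22 lie outside the plotted range of -2.6 to 2.6 and are not drawn. Red points lie mostly above the dotted line, closer to 0 after IFNG. All points were chosen by their untreated values, so a smaller difference after IFNG is in part expected from that choice alone.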

How the data were processed

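RNA was measured by poly(A) RNA-seq. Per the labels and the study's methods, the authors aligned reads to mm10 with HISAT2 2.1.0, sorted them with SAMtools 1.10 and counted fragments per gene with featureCounts 1.6.2 in reversely stranded mode. The deposited values are raw counts per gene, 54146 genes, of which 26785 had a count in an untreated library. Fragments over overlapping genes were counted for each gene. Columns named a clone but not a replicate, so libraries carry no numbers. Where nothing says that libraries of a clone came from separate cultures, p-values measure only the spread between these samples. RNA input and adapter kind varied without assignment to libraries and were not tested.

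The test was edgeR's quasi-likelihood test (edgeR 4.0.16, R 4.3.3) after filterByExpr and TMM scaling, 9 WT against 6 KO libraries, no covariate, threshold 0.05. SE is the absolute log2FC over the square root of F. Alternatives were DESeq2 1.42.0, limma 3.58.1 (voom, duplicateCorrelation), other filters, thinning to 15566122 counts, sums per clone and leaving out each library and clone. The scripts were tested on simulated data. Named genes were, among protein-coding members whose mean reached 5 CPM in a group, the 12 largest differences in each direction, the 6 largest outside chromosomes 6, 12 and 17, up to 4 per list and direction at 1 CPM, and Dicer1, Pla2g7, Art3 and Rras2. Other genes were named after their values were seen. Members and lists were chosen with earlier results of these data known. Positions come from GENCODE vM21 (54079 identifiers matched, 52824 with the same span). Intervals on ratios cover counting error only. Some items withheld for evaluation are not reported here.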

Additional observations from a re-analysis of the deposited data

Results flagged for a closer look

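The KO minus WT difference was tested for a change with IFNG in the 26 genes named by size or given with the comparison, by 1 model of the 30 libraries that included clone (edgeR, adjusted over 14870 genes, of which 151 passed). For Pla2g7 the difference was smaller after IFNG, by -2.96 on the log2 scale (adjusted p = 0.00765, edgeR), where WT libraries had hardly any untreated counts. For Dicer1 the difference became more negative, by -0.36 (adjusted p = 5.53e-05, edgeR). No library of these 26 genes stood apart from its group of 9 WT or 6 KO libraries by the Dixon test at the 95% level (52 groups examined). The groups pool clones, and differences between clones widen the range against which this test sets a gap. It could therefore miss a library that differs from others of its clone.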

How the results depend on the processing

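No paired analysis was possible because the columns of the deposited tables carry no replicate numbers, so the replicate block was not run. Some alternatives kept the counts of called genes and of genes with both KO clones outside within 1.5 times of the values given. These were DESeq2, RLE factors, omitting the filter, requiring 10 counts in each library and thinning to the smallest total. The single gene lists were recomputed with DESeq2, the clone block and 1 clone left out. No direction of a named gene reversed under any alternative run. Named genes were chosen with both KO clones on the same side of all WT clones. That choice leaves little room for a reversal, so its absence is no separate check. One fit over all 30 libraries called 7143 genes (3681 higher, 3462 lower). Counts summed per clone called 1 gene, higher, on chromosome 17, and 0 outside chromosomes 6, 12 and 17 (1842 at an unadjusted p under 0.05), and Dicer1 had a log2FC of -0.44 (adjusted p = 0.446, edgeR). With the clone block, limma voom called 950 genes, 419 higher and 531 lower, of which 393 and 526 had both KO clones outside, and 289 and 310 outside chromosomes 6, 12 and 17. Of 112 named genes besides Dicer1, 35 lost their call with the clone block and 111 with sums per clone. With 2 KO clones, the spread between clones is poorly estimated.

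Leaving out 1 library gave 2952 to 4235 called genes. Leaving out 1 clone gave 1674 (without KO1) to 6472 (without WT1), with 706 to 3264 higher and 968 to 3208 lower. With both or the remaining KO clone outside the WT range, the counts were 706 to 3176 higher and 968 to 3143 lower, and outside chromosomes 6, 12 and 17 they were 522 to 2616 and 676 to 2562, each lowest without KO1 and highest without WT1. Listed genes numbered 45 to 157 higher and 45 to 118 lower. The log2FC of Dicer1 ranged from -0.74 to -0.18 (adjusted p = 0.179 without KO1, edgeR). The cause of these shifts was not tested.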
